A study of Mus musculus with 16 samples.

Results

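The comparison described here is that of cells with a low level of FOXA2 against cells labelled negative for it, in mouse neural tube organoids on day 4. Of the 16 libraries in the series, 8 entered it: 4 of the group labelled negative for FOXA2 expression and 4 of the group labelled low. They were chosen by these labels and not by any measured value. The organoids were grown from R1, a mouse embryonic stem cell line that carried the FOXA2-Venus reporter, and both groups had received retinoic acid (RA) for 18 hours. The medium and high groups, with 4 libraries each and the same line and treatment, entered the estimate of the spread and supply the only other comparison made. The 4 groups are called gates below. The libraries of a gate are numbered in the labels, with no word on whether they came from different cultures. The p-values therefore rest on the spread among libraries, some of which may be technical. All groups come from 1 reporter line.

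FOXA2 is a forkhead transcription factor that can bind its sites in closed chromatin. In the neural tube it marks the floor plate, the ventral midline that secretes Sonic hedgehog and patterns the cells around it, and it is also made in the notochord and the endoderm. Embryonic stem cells that leave pluripotency shut down a network of transcription factors and their targets, passing from a naive to a primed state before they take up a neural fate under retinoic acid. BMP proteins, secreted signals of the dorsal neural tube, oppose the ventral programme in the embryo. The question of the comparison is which other transcripts differ between cells at the lowest level of FOXA2 and cells labelled negative for it.

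The negative libraries held 5451076 to 9961032 counts each and the low ones 5527287 to 7930805. A count of 0 allows up to 3 counts, which is at most 0.55 CPM (counts scaled to library size) in these 8 libraries, from counting error only. The mitochondrial share of counts was 1.86% to 2.18% in the negative gate and 1.63% to 2.42% in the low gate. The first principal component of the 8 libraries, with 29.3% of the variance, separated the gates. On the second, low 1 lay at 31.34 and the other low libraries at -8.44 or less. On the third, low 2 lay at 36.58 and the other low libraries at -1.33 or less. Negative 1 to 4 were spread along the same components. They lay at 10.14, -15.73, 24.63 and -8.40 on the second and at 5.38, 1.81, 1.86 and -20.13 on the third. Foxa2 itself, on chromosome 2 at 148042877 to 148046969 (GRCm38), measured 1.78, 2.95, 5.28 and 1.64 CPM in the negative libraries and 14.8, 9.54, 14.3 and 9.14 CPM in the low ones. The ranges did not overlap, so each library matched its label (log2 fold change 2.12, SE 0.275, adjusted p = 1.55e-05). Its rise defines the gates and is not a finding. Of the genes that define neural progenitors, Pax6, Nes, Rfx4, Cdh2 and Vim were measured in all 8 libraries, but Sox1, Sox2, Sox4 and Mab21l2 were listed at 0 counts in all 16.

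The promoters of 4 genes that fell are shown first, because each holds the octamer of POU factors, 1 of 5 motifs searched. The shares of all 5 are given after them. The capitals mark ATTTGCAT, the octamer that POU factors such as POU5F1 recognise, or its reverse complement ATGCAAAT. Each sequence is the RefSeq promoter window on GRCm38.p6, read along the gene's strand from 250 bases before the annotated start to 50 bases after it. The 4 were picked after the matches and the fold changes had been seen.

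Chchd10, chr10:75932880-75933179, plus strand: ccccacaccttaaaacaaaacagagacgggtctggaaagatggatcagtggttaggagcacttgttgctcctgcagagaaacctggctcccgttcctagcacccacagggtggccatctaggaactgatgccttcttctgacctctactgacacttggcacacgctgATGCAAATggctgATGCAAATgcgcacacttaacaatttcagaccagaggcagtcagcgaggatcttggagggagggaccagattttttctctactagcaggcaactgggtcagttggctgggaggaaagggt
Pim2, chrX:7878056-7878355, plus strand: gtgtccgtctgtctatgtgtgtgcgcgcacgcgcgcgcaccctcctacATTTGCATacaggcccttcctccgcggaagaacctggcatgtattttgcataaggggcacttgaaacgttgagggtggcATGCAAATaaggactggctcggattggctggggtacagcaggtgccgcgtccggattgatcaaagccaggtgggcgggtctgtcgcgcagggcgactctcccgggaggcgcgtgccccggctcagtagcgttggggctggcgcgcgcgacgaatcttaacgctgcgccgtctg
Zfp42, chr8:43306960-43307259, minus strand: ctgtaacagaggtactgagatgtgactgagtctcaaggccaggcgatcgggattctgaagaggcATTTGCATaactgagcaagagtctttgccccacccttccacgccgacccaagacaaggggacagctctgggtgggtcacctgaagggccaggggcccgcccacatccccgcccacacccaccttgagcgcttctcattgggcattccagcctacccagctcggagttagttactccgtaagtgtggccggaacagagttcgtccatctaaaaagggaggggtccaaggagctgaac
Zfp296, chr7:19577037-19577336, plus strand: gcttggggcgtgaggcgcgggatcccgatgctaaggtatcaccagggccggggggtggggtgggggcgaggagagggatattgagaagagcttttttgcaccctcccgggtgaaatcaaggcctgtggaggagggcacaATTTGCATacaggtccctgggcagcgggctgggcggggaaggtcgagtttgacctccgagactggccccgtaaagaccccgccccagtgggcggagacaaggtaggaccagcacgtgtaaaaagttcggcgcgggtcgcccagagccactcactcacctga

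Chchd10 and Pim2 hold 2 octamers each, and Zfp42 and Zfp296 hold 1. Over both strands, the octamer was found in 11 of 328 promoters of genes that fell (3.35%), in 1 of 175 of genes that rose (0.571%) and in 177 of all 13537 promoters of tested genes (1.31%). The forkhead motif TGTTTAC was found in 3.35% of the promoters of genes that fell, 2.86% of those of genes that rose and 2.54% of all. The TCF/LEF motif CTTTGAT stood at 3.35%, 3.43% and 2.59%, and the hypoxia motif TACGTG at 1.83%, 3.43% and 3.68%. The GLI motif TGGGTGGTC was in none of the promoters of called genes and in 0.229% of all. Some genes have several windows, 10467 of the 13891 tested genes had any, and a match of letters is not a binding site. No test was made of these shares.

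Between the low and the negative gate, 189 of 13891 tested genes rose and 310 fell (edgeR's quasi-likelihood test, adjusted p under 0.05), which is 1.36% and 2.23% of those tested and 3.59% together. The genes that fell moved further. Their median log2 fold change was -1.19, and 182 of the 310 changed more than 2-fold, against a median of 0.82 and 61 of 189 for the genes that rose. The median over all tested genes was 0.02. In 163 of the 189 the 4 low libraries all lay above the 4 negative ones, and in 287 of the 310 they all lay below, where over all tested genes this held for 4.04% and 5.6%. A call that held with the same sign under each of 24 alternative settings was made for 71 genes that rose (0.511%) and 138 that fell (0.993%). Such a call and the lack of overlap were both conditions for the genes named below by size or by p, so neither is a finding about them. The counts depended on single libraries: without negative 1, 123 genes rose and 245 fell, and without negative 2, 132 rose and 208 fell. Without low 1 and medium 2 the counts were 198 and 283, and without low 2 they were 157 and 270. The cells were measured in bulk, so fewer cells of a type and less RNA per cell cannot be told apart in any result below.

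**Figure D1:**
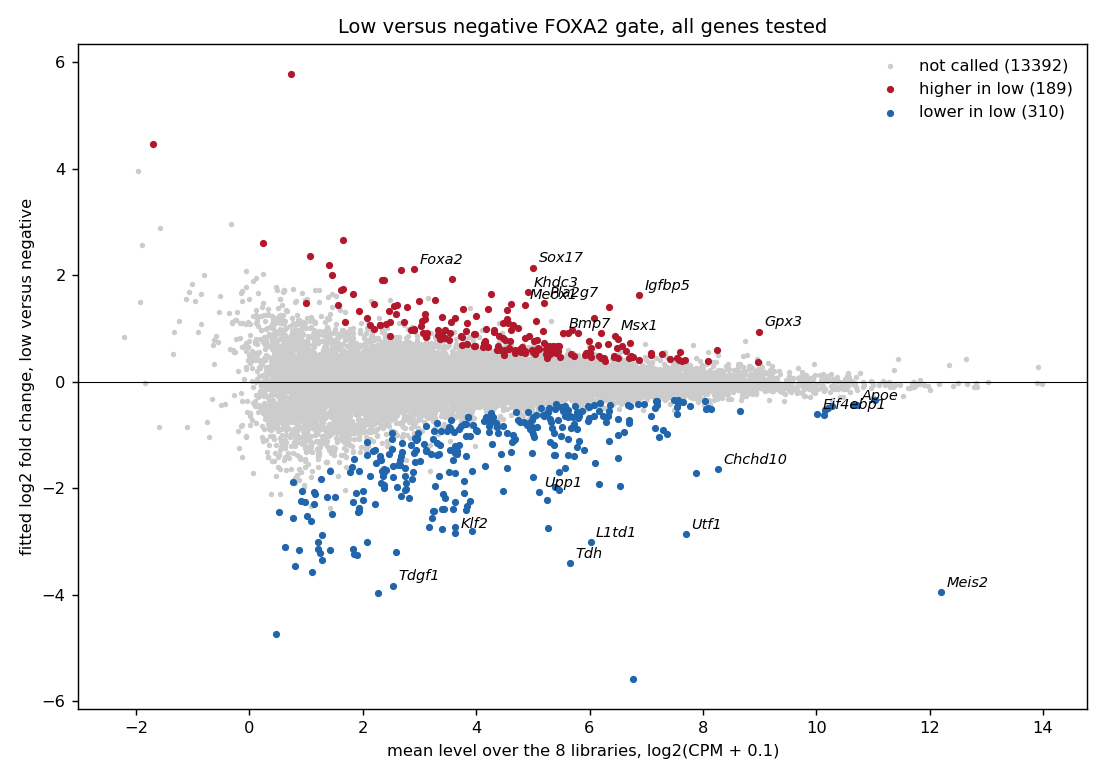
Each point is 1 tested gene, with its mean level over the 8 libraries on the x axis (log2 of CPM + 0.1) and its fitted log2 fold change of low versus negative on the y axis. Red marks the 189 genes that rose and blue the 310 that fell, and the blue points reach further from 0. Meis2, at the lower right, owes its place to a single negative library.

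The core pluripotency list had the largest share of members that fell among the 43 lists read. Of 24 tested genes of the core pluripotency list, 16 fell and none rose, beside 2.23% and 1.36% of all genes, and the median log2 fold change was -1.95. The counts of every list below are to be set beside the same shares. Mylpf and Calcoco2 were put on this list because they had fallen in earlier results of these data, and without them 14 of 22 fell, with a median of -1.91. The other members and the 43 lists were also chosen with earlier results known, so neither share is independent of these data. Utf1, a chromatin-associated protein of pluripotent cells, measured 303, 486, 383 and 284 CPM in the negative libraries and 48.3, 67.3, 49.4 and 35.1 in the low ones. The lowest negative library thus stood far above the highest low one (log2 fold change -2.87, SE 0.206, adjusted p = 4.69e-09). Tdh, threonine dehydrogenase, which feeds the one-carbon metabolism of mouse embryonic stem cells, went from 76.3, 137, 88.1 and 64.5 CPM to 5.95, 14.8, 6.35 and 7.69 (log2 fold change -3.41, SE 0.257, adjusted p = 6.36e-09). L1td1, an RNA-binding protein derived from a retrotransposon, fell from 115 ± 39.3 to 14.3 ± 5.69 CPM (SD, n = 4, as for the other levels given this way).

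Among the transcription factors, Klf2, part of the naive network, measured 22.7, 27.4, 23.1 and 13.4 CPM in the negative libraries and 3.29, 3.0, 2.82 and 2.76 in the low ones. The 4 low libraries were close to each other and all below the negative range (log2 fold change -2.85, SE 0.281, adjusted p = 2.96e-07). Nanog went from 21.4, 26.9, 30.4 and 15.7 CPM to 5.07, 9.01, 4.09 and 0.58 (log2 fold change -2.34, SE 0.391, adjusted p = 0.000457). Zfp42, also known as Rex1, went from 62.9 ± 18.9 to 13.4 ± 4.55 CPM, and Tfcp2l1 from 10.5 ± 1.61 to 2.79 ± 1.28. Dppa2, Dppa4 and Dppa5a, developmental pluripotency-associated genes, fell by 2.26, 1.10 and 1.92 on the log2 scale, and Tbx3, a T-box factor, by 1.99. Mylpf and Calcoco2 fell by 2.75 and 2.80. Dppa3 and Nr0b1 fell by 3.00 and 3.25 from means of 7.32 and 6.53 CPM. Esrrb, an orphan nuclear receptor, fell by 1.70 (adjusted p = 0.0284), but its call was lost without any 1 of negative 1, 2, 3 or 4 or low 2, 3 or 4 (adjusted p 0.0527 to 0.0957).

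The other 8 tested members were not called, among them the RNA-binding proteins Lin28a (log2 fold change 0.49, adjusted p = 0.217) and Trim71 (0.29, adjusted p = 0.451), the zinc finger factor Sall4 (0.03, adjusted p = 0.964) and the methylcytosine dioxygenase Tet1 (-0.62, adjusted p = 0.068). Lin28a measured 796 CPM in low 1 and 352, 377 and 429 in the other low libraries. Pou5f1, Fgf4 and Tcl1 were too low to be tested, with 64, 98 and 27 counts over the 4 negative libraries and 12, 4 and 1 over the 4 low ones. Summed over its 27 genes, the list stood at 1490 to 1920 CPM in the negative libraries and 852 to 1380 in the low ones, without overlap. The count of members that fell stayed between 15 and 18 when each library was left out.

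Genes that were not on the core pluripotency list fell as clearly. Chchd10, a protein of the mitochondrial intermembrane space, measured 499, 552, 450 and 370 CPM in the negative libraries and 136, 184, 141 and 139 in the low ones (log2 fold change -1.64, SE 0.129, adjusted p = 1.15e-08). The lowest negative library, at 370 CPM, stood well above the highest low one, at 184. Upp1, uridine phosphorylase, went from 55.6, 65.3, 57.7 and 44.0 CPM to 10.8, 14.0, 12.4 and 15.5 (log2 fold change -2.08, SE 0.178, adjusted p = 4.1e-08). Rasgrp2, an exchange factor for RAP proteins, fell by 1.79, and Hspb1, a small heat shock protein, by 1.95, from 148 ± 31.8 to 38.0 ± 6.04 CPM. The remaining genes taken by size were Platr10 (a long non-coding RNA), Morc1 (which represses transposons in the germline), Exoc3l, Lgals3 (galectin 3), Fam25c, Cpsf4l, Esyt3 and Zfp296 (a zinc finger protein of embryonic stem cells). They fell by between 2.40 for Zfp296 and 3.20 for Platr10. All of them lay lower in each of the 4 low libraries than in any negative one, which was a condition for naming them.

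**Figure D2:**
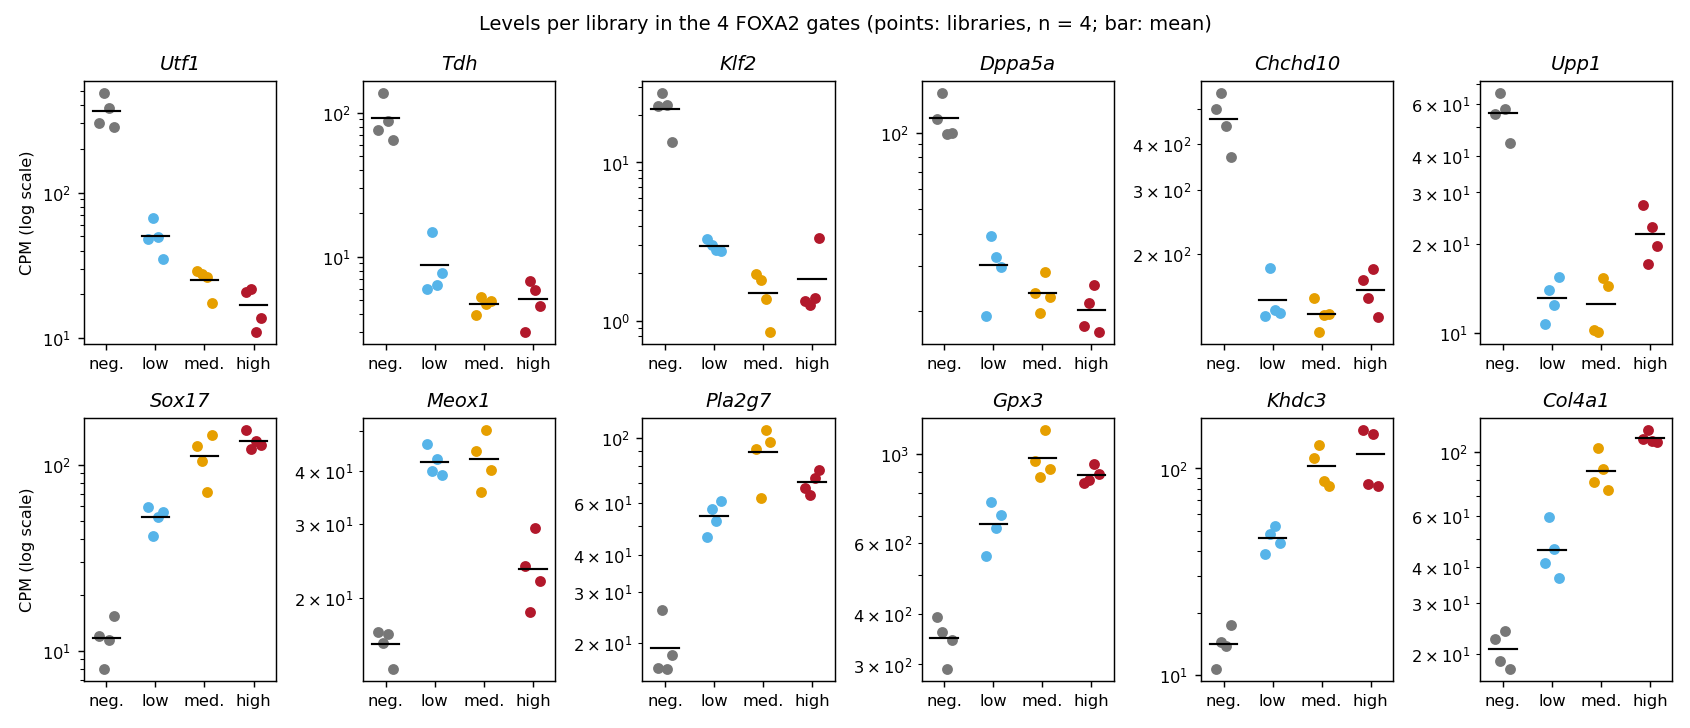
Points are libraries, bars are the mean of 4, and the y axis is CPM on a log scale that differs between panels. The upper row shows 6 genes that fell and the lower row 6 that rose, with the medium and high gates beside them. No panel has overlap between the negative and the low libraries, which was a condition for naming all of these genes but Col4a1.

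Genes of the primed epiblast, of NODAL signalling and of germ cells fell along with these. Of 12 tested primed epiblast genes 4 fell and none rose (median -0.80): Dnmt3l, a cofactor of the de novo DNA methyltransferases, from 24.3 ± 6.75 to 5.15 ± 1.83 CPM, Pim2, a kinase, from 70.9 ± 27.8 to 17.2 ± 4.81, Slc7a3, an arginine transporter, from 26.5 ± 7.00 to 8.93 ± 5.88, and Otx2. The homeobox gene Otx2 stood at 4.07 ± 3.24 against 0.448 ± 0.668 CPM, and its call was lost without negative 2, low 1, low 3 or low 4 (adjusted p 0.0537 to 0.131). Epcam, Cdh1 and Dnmt3b of the same list had log2 fold changes of 0.12, -0.24 and -0.37 and were not called.

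Of 13 NODAL pathway genes 5 fell and none rose (median -0.76). Tdgf1, the NODAL co-receptor Cripto, measured 10.9, 18.1, 6.19 and 7.06 CPM in the negative libraries and 0.127, 1.94, 0.282 and 0.725 in the low ones. It had the largest fall of the genes named by size (log2 fold change -3.84, SE 0.587, adjusted p = 0.000165). The ligand Nodal went from 6.27 ± 2.7 to 0.677 ± 0.164 CPM, the related ligand Gdf3 from 22.1 ± 4.22 to 5.27 ± 2.76, and Foxh1, the factor through which the pathway's SMAD proteins reach DNA, from 35.0 ± 5.18 to 16.6 ± 3.39. Lefty1, a secreted NODAL inhibitor, measured 84.2, 142, 95.9 and 83.0 CPM against 24.2, 68.7, 23.0 and 24.8, so that low 2 stood apart (log2 fold change -1.54, adjusted p = 0.0241). Its call was lost without negative 2, low 1, low 3 or low 4 (adjusted p 0.0823 to 0.102), with DESeq2 (0.0894) and with robust moderation of the dispersion (0.179).

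Of 16 germline genes 6 fell and 1 rose (median -0.75). Tfap2c, an AP-2 factor of germ cell and trophoblast precursors, measured 73.1, 64.9, 87.9 and 78.9 CPM against 28, 33.6, 26.8 and 27.4 (log2 fold change -1.40, SE 0.138, adjusted p = 2.96e-07). Nanos3, Tex19.1, Gtsf1, Gtsf1l and Tdrd12, which act in germ cell survival or in silencing of transposons, fell by 3.16, 1.83, 1.58, 2.39 and 1.68. Khdc3, a protein of the oocyte's maternal complex that is also made in embryonic stem cells, went the other way. It measured 10.7, 14.4, 13.8 and 17.4 CPM in the negative libraries and 38.6, 48.2, 52.7 and 43.8 in the low ones (log2 fold change 1.69, SE 0.207, adjusted p = 7.6e-06). Of 7 tested trophoblast genes, 3 fell: Ascl2 by 1.77 in all settings, and Esx1 and Gcm1 by 1.01 and 2.05. The call of Esx1 was lost without negative 3 or low 2 (adjusted p 0.0559 to 0.0636), and that of Gcm1 without any of negative 2, 3 or 4 or low 1, 2 or 3 (0.0655 to 0.117).

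Genes of the neural tube's own pattern were read in several lists. None of the 16 tested genes that mark intermediate and dorsal positions passed the test in either direction. Among all tested genes 3.59% did, so a list of 16 is too short for such a count to stand apart. The median log2 fold change was 0.02, that of all tested genes, with 8 members above 0 and 8 below. Single members stood further off without passing. Irx1 was at 1.56 (adjusted p = 0.11), Pax7 at 0.77 (0.105), Dbx1 at -0.98 (0.311) and Dbx2 at -1.06 (0.239). Pax6, which is read along the whole middle of the tube, measured 93.1, 88.2, 92.8 and 107 CPM against 101, 71.4, 83.9 and 92.1 (log2 fold change -0.13, adjusted p = 0.725). Among 18 pan-neural genes Prom1, the membrane protein prominin 1, rose from 31.6 ± 1.30 to 50.5 ± 6.09 CPM in all settings. Zfp521 also rose (log2 fold change 0.50, adjusted p = 0.0412) and Hes3, a HES repressor, fell (-0.76, adjusted p = 0.0117). The call of Zfp521 was lost without any 1 of the 8 libraries or medium 4 (0.0502 to 0.151), and that of Hes3 without negative 4 or low 2 (0.0544 to 0.0635). None of the 15 Hox genes and none of the 3 ventral progenitor genes tested was called, lists that are likewise short. The ventral gene Nkx6-1 had a log2 fold change of 1.23 (adjusted p = 0.206).

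Of 13 proneural and neuronal genes 5 fell and none rose (median -0.42), and 11 had a fitted change below 0. Map2, Elavl4, Gap43 and Elavl3 were among those not called, with log2 fold changes of 0.71 (adjusted p = 0.19), 0.18, -0.12 and -0.30. Tubb3, the neuronal beta tubulin, measured 45.4, 40.5, 41.9 and 38.7 CPM in the negative libraries and 23.3, 24.5, 18.1 and 24.9 in the low ones (log2 fold change -0.87, SE 0.15, adjusted p = 0.000604). Stmn2, a microtubule regulator of growing axons, fell by 1.11 and Ina, a neurofilament protein, by 1.01. Neurog1 and Ebf1, transcription factors of early neurons, fell by 2.26 and 2.29. Their calls were lost without negative 1, negative 3, low 1, low 2 or low 4, among others (adjusted p 0.0629 to 0.156 over those 5 for the 2 genes).

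Of 14 tested floor plate genes, Foxa2 included, 4 rose and none fell (median 0.47). Without Foxa2, whose level defines the gates, 3 of 13 rose, or 23.1%, beside 1.36% of all genes (median 0.43 and 0.02). Nkx2-9, a homeobox gene of the ventral midline, measured 21.9, 13.7, 20.02 and 14.7 CPM in the negative libraries and 42.9, 44.2, 28.4 and 25.8 in the low ones (log2 fold change 1.01, SE 0.202, adjusted p = 0.00296). Foxa1, the paralogue of Foxa2, measured 0.648, 0.347, 0 and 0.205 CPM against 3.04, 1.41, 0.706 and 2.32 (log2 fold change 2.60, SE 0.578, adjusted p = 0.00808). The call of Foxa1 was lost when libraries were thinned to the smallest total (adjusted p = 0.134). Slit1, an axon repellent, rose by 0.77, a call that was lost without negative 2, low 1 or low 4 (0.0586 to 0.0897). Ntn1 and Spon1, secreted floor plate proteins, had log2 fold changes of -0.17 (adjusted p = 0.779) and 0.50 (adjusted p = 0.165), and Shh had 7 counts in the negative and 3 in the low libraries, too few to be tested. None of the 20 genes of the Hedgehog pathway was called, beside 3.59% of all genes. The receptor and target Ptch1 stood at 0.21 (adjusted p = 0.691) and the target Gli1 at -0.25 (adjusted p = 0.687).

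Among the genes that rose, those with the largest changes came from several families. Sox17, an HMG-box factor best known from endoderm and endothelium, measured 12.0, 7.99, 11.5 and 15.4 CPM in the negative libraries and 59.5, 41.5, 52.5 and 56 in the low ones. The lowest low library stood well above the highest negative one (log2 fold change 2.14, SE 0.197, adjusted p = 1.3e-07). Meox1, a homeobox gene of the somites, measured 16.5, 15.6, 16.4 and 13.5 CPM against 46.5, 40.1, 42.9 and 39.2, with little spread in either gate (log2 fold change 1.45, SE 0.151, adjusted p = 7.32e-07). Pla2g7, the secreted enzyme that breaks down platelet-activating factor, went from 16.5, 26, 16.4 and 18.3 CPM to 46.1, 57.4, 52.0 and 60.9 (log2 fold change 1.49, SE 0.165, adjusted p = 1.69e-06). Gpx3, a secreted glutathione peroxidase, went from 394, 362, 292 and 345 CPM to 557, 758, 655 and 704 (log2 fold change 0.94, SE 0.111, adjusted p = 4.1e-06). Gsn, the actin-severing protein gelsolin, went from 7.51 ± 0.664 to 19.6 ± 1.80 CPM, and Ntng1, a membrane-bound netrin relative, from 2.32 ± 0.789 to 10.3 ± 4.02. Arg1 (arginase 1), Timp3 (an inhibitor of metalloproteinases), Fndc5, Cpn1 (a secreted carboxypeptidase) and Rassf10 rose by 1.92, 1.54, 1.45, 1.35 and 1.23.

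Markers of the other tissues that make FOXA2 or SOX17 were read for this reason. Of 13 tested endoderm genes 5 rose and 1 fell. Among those that rose beside Sox17, the trypsin inhibitor Spink1 went from 6.23 ± 1.46 to 14.6 ± 4.21 CPM, the endocytic adaptor Dab2 from 13.9 ± 6.25 to 30.0 ± 8.58 and the tight junction protein Cldn6 from 32.3 ± 4.96 to 46.3 ± 3.44. The call of Cldn6 was lost without negative 4 (adjusted p = 0.0563). Apoe, an apolipoprotein that many cells make, measured 1938, 2117, 1930 and 1730 CPM against 1504, 1493, 1346 and 1352 (log2 fold change -0.44, SE 0.0911, adjusted p = 0.00442). Apoe made up most of the summed level of the 22 listed genes, which was 1810 to 2210 CPM in the negative gate and 1510 to 1680 in the low gate. Without it, the other 21 genes summed to 80.7 to 94.5 CPM in the negative gate and 164 to 175 in the low gate, the opposite direction. Sox17, for whose rise the list was read, was a large part of this, at means of 11.7 and 52.4 CPM. No sum was made without Sox17. The defining endoderm genes Gata6, Hnf4a, Apob, Afp and Cubn had 4, 2, 3, 2 and 0 counts over the negative libraries and 9, 4, 1, 20 and 6 over the low ones, and Gata4 and Foxa3 were not called.

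Of 8 tested notochord genes, Krt18 and Col2a1 rose, by 0.50 and 0.47, and none fell, while Noto was at 0 counts in both gates and T had a log2 fold change of 1.66 without passing the test. The call of Krt18 was lost without negative 2, 3 or 4 or low 2 (adjusted p 0.0627 to 0.143) and that of Col2a1 without negative 2 or 3 or low 1, 2 or 4, among others (0.0708 to 0.168 for these). The summed notochord list stood at 280 to 336 CPM in the negative gate and 365 to 474 in the low gate. Krt18, Col2a1 and Krt8 made up most of it, with means of 112, 71.9 and 69.9 CPM against 159, 99.6 and 86.2. Krt8 was not called (log2 fold change 0.30, adjusted p = 0.366). Of 9 tested mesoderm genes Meox1 rose and Tcf15, a factor of the somites and of cells leaving naive pluripotency, fell from 17.9 ± 5.83 to 3.86 ± 1.64 CPM. The mesoderm sum stood at 47.1 to 60.2 CPM against 67.0 to 82.8, in which Meox1 alone had means of 15.5 and 42.2. None of 4 endothelial and blood genes was called (sums of 14.4 to 20.1 and 9.55 to 12.4 CPM). Of 12 neural crest genes only Sox9, an HMG-box factor that is also made in neural progenitors, rose, from 14.3 ± 2.14 to 32.2 ± 4.90 CPM (list sums of 126 to 150 and 165 to 174 CPM). The part of such cells in the other results was not tested.

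Signalling genes changed in a few places. Of 5 tested BMP ligands 2 rose and none fell. Bmp7 measured 29.3, 25.3, 34.8 and 38.2 CPM in the negative libraries and 59.4, 62.7, 59.0 and 60.2 in the low ones, which were nearly equal (log2 fold change 0.91, SE 0.134, adjusted p = 0.000101). Bmp4 measured 5.67, 5.90, 3.82 and 4.71 CPM against 9.37, 16.2, 7.48 and 11.7 (log2 fold change 1.14, SE 0.236, adjusted p = 0.00413), a call lost on thinning (adjusted p = 0.0562). Of 15 genes of the BMP response and its receptors, the homeobox target Msx1 rose from 62.0 ± 10.9 to 113 ± 15.6 CPM (log2 fold change 0.87, SE 0.151, adjusted p = 0.000701). The decoy receptor Bambi also rose, by 0.81, but not without negative 1, negative 2, low 1 or low 2 (adjusted p 0.0901 to 0.111). The immediate targets Id1, Id2 and Id3 had log2 fold changes of 0.30, 0.14 and 0.24 and were not called. Of 10 antagonists Fst, follistatin, fell by 1.19. That call was lost without negative 2, low 1, low 3 or low 4 (0.0663 to 0.201), and Nog, with 11 and 6 counts, could not be tested.

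In the WNT lists Sp5, a direct target of the canonical pathway, measured 11.2, 5.21, 10.9 and 13.3 CPM against 37.7, 18.7, 22.7 and 26.5 (log2 fold change 1.36, SE 0.221, adjusted p = 0.000325). Lef1, a transcription factor of the same pathway, went the opposite way, from 36.0, 57.6, 42.0 and 34.5 CPM to 22.4, 25.1, 16.7 and 21.8 (log2 fold change -0.98, SE 0.195, adjusted p = 0.00279). They were the only 2 of 16 WNT response genes called. Of 21 WNT ligands and modulators 3 rose, a count that was 0 without negative 4.

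The insulin-like growth factor system moved in 1 direction where it moved. Of its 17 genes 4 rose and none fell (median 0.24). Igfbp5, a secreted binding protein, measured 60.3, 84.2, 43.3 and 41.2 CPM against 184, 235, 147 and 138 (log2 fold change 1.63, SE 0.212, adjusted p = 1.71e-05). Igfbpl1, a related protein of the developing brain, measured 36.1, 35.8, 33.3 and 33.9 CPM against 73.1, 72.9, 72.6 and 54.8 (log2 fold change 0.97, SE 0.15, adjusted p = 0.000182). The ligand Igf1 went from 1.71 ± 0.751 to 5.15 ± 2.09 CPM. Igfbp4 rose by 0.59, a call lost without negative 1 or low 1, among others (adjusted p 0.0668 and 0.089).

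Of 16 Notch pathway genes 3 rose and none fell, of which the target Hey1, from 9.34 ± 1.43 to 16.9 ± 1.78 CPM, was called in all settings. The Notch count was 1 without negative 1, 2 or 4. Of 20 FGF genes 4 fell and none rose. Fgf15, an FGF of the early neural tube, fell from 40.04 ± 6.26 to 21.7 ± 3.63 CPM in all settings, while the count of the list was 1 without negative 2, low 3 or low 4. Of 20 retinoic acid genes, the receptor Rarg fell from 33.5 ± 6.61 to 16.6 ± 2.69 CPM in all settings. Meis2, a homeobox gene induced by retinoic acid, passed the test only through 1 library. It measured 33902, 519, 474 and 387 CPM in the negative libraries and 564, 564, 511 and 635 in the low ones, and it made up 3.39% of negative 1. The log2 fold change was -3.96 (adjusted p = 0.0113) with that library and 0.31 (adjusted p = 0.44) without it. LOC108168785 showed the same, with 839 CPM in negative 1 and no more than 7.83 in the rest of the 8 libraries (log2 fold change -5.58, adjusted p = 0.00472, and -0.20, adjusted p = 0.896 without negative 1).

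Of 28 tested genes of the basement membrane and matrix, 8 rose and none fell, beside 1.36% and 2.23% of all genes, and the median was 0.22. This was the largest number of risen members in any of the 43 lists but not the largest share: it was 28.6%, as in the floor plate list with Foxa2, and it was higher for the BMP ligands (2 of 5) and the endoderm genes (5 of 13). Col4a1, a chain of type IV collagen, the network of the basement membrane, measured 22.5, 18.9, 24.0 and 17.7 CPM in the negative libraries and 41.0, 59.3, 45.9 and 36.4 in the low ones (log2 fold change 1.14, SE 0.149, adjusted p = 1.77e-05). Its partner Col4a2 went from 21.5 ± 2.01 to 39.0 ± 4.05 CPM, and Lamb1, a laminin chain, from 29.8 ± 2.85 to 47.7 ± 8.49. Smoc1, a secreted calcium-binding protein that modulates BMP signals, measured 53.3, 45.0, 53.1 and 51.4 CPM against 96.6, 111, 83.6 and 90.8 (log2 fold change 0.91, SE 0.113, adjusted p = 7.74e-06). Its paralogue Smoc2 rose by 1.13 and Npnt, the integrin ligand nephronectin, by 0.92. Fras1, a matrix protein that anchors epithelia, rose by 0.73, a call lost without negative 1 or negative 4 (adjusted p 0.0825 and 0.0809). The eighth was Col2a1, given above.

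**Figure D3:**
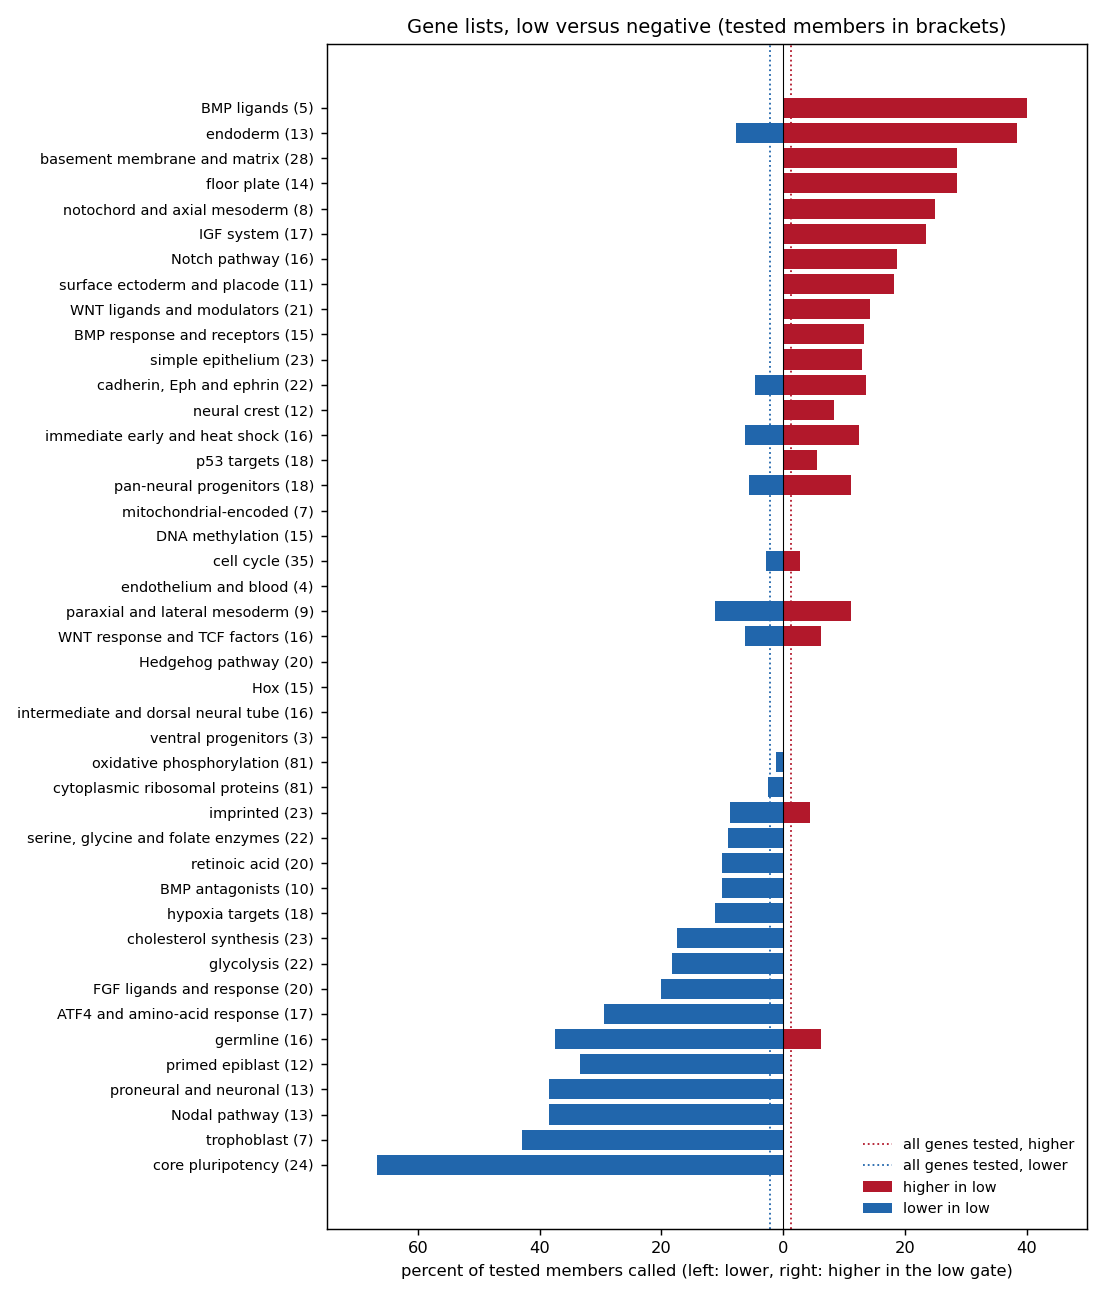
Bars give the percentage of tested members of each list that rose (red, right) or fell (blue, left) in the low gate, with the number of tested members in brackets. The dotted lines mark the shares among all tested genes, 1.36% and 2.23%. Core pluripotency reaches furthest to the left, with 16 of 24, and short lists move in large steps.

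Metabolic genes and genes of the ATF4 response fell in small numbers. Of 17 genes of the ATF4 and amino-acid response 5 fell and none rose (median -0.29). Eif4ebp1, a translation inhibitor, measured 1218, 1435, 1175 and 1194 CPM against 788, 847, 870 and 772 (log2 fold change -0.62, SE 0.0994, adjusted p = 0.000316). Trib3, Nupr1 and Chac1, all induced by ATF4 under stress, fell by 2.30, 2.15 and 1.68. Atf4 itself, Ddit3 and Atf5 of the same list had log2 fold changes of -0.29, 0.28 and 0.30 and were not called. Asns, asparagine synthetase, fell by 0.42 at the edge of the threshold (adjusted p = 0.0498). It lost its call without negative 1 or low 4, among others (0.129 and 0.198). Of 16 tested immediate early and heat shock genes 2 rose and 1 fell, or 12.5% and 6.25%. The count of those that rose was 0 without negative 2. In the cholesterol synthesis list 22 of 23 genes had a fitted change below 0, where 47.4% of all tested genes did, and the median was -0.36. Only 4 of them fell by the test: Fdps, from 312 ± 24.0 to 218 ± 15.0 CPM in all settings, and Hmgcs1, Msmo1 and Mvd, by 0.44, 0.42 and 0.59. Without negative 1 only 1 of the 23 was called and the adjusted p-values of those 3 were 0.0671, 0.0725 and 0.0888, while DESeq2 called 11. Of 22 glycolysis genes 4 fell: the phosphofructokinase Pfkp and the lactate transporter Slc16a3, by 1.78 and 1.04, in all settings, and Aldoa and Ldha, by 0.50 and 0.63. The last 2 calls were lost without negative 2 (0.125 and 0.247), without low 1, 3 or 4 (0.0528 to 0.149) and, for Ldha, without negative 3 (0.0695). None of the 15 DNA methylation genes was called, beside 3.59% of all genes. Of 35 cell cycle genes 1 rose and 1 fell, 2.86% each, near the 1.36% and 2.23% of all genes. Both of these calls were lost without negative 2, negative 4, low 1 or low 4.

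The step from the medium to the high gate shares no library with that from negative to low, and its values can be set beside it. In that step 44 genes rose and 72 fell (0.317% and 0.518% of those tested, 0.835% together). Foxa2 itself changed by 2.12 from negative to low and by 1.13 from medium to high. The high libraries held 3268948 to 6517958 counts. With all libraries thinned to the smallest total, 128 genes rose and 237 fell at the first step and 43 and 59 at the upper one. The part that the size of the Foxa2 step had in these counts was not tested. Of the 189 genes that rose from negative to low, 13 (6.88%) also rose from medium to high, which is 29.5% of the 44, and 10 (5.29%) fell. Foxa2 is counted among the 189, the 13 and the 44, though its rise at both steps is set by the gates. Of the 310 that fell, 5 (1.61%) also fell, which is 6.94% of the 72, and 2 rose. The median change from medium to high was 0.03 for the 189 and -0.05 for the 310. Smoc1, Smoc2, Nkx2-9 and Ntng1 rose at both steps, Ntng1 by 2.11 and 1.01. The counts of the upper step moved with single libraries: they were 98 and 118 without medium 2 and 24 and 52 without medium 3, and 25 and 40 without high 1.

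The difference between the steps was tested gene by gene. It passed the threshold for 248 genes (1.79%), of which 125 (0.9%) changed more upwards at the first step and 123 (0.885%) more downwards. Of the 189 and the 310 genes called at the first step, 63 and 107 were among these. The test uses the same low and negative libraries, so these counts are not independent of the first calls. Meox1 rose by 1.45 from negative to low and fell by 0.86 from medium to high (difference 2.31, SE 0.212, adjusted p = 4.56e-07). Igfbpl1 and Kirrel3, an adhesion molecule of neurons, likewise rose at the first step, by 0.97 and 0.96, and fell at the last, by 0.89 and 1.39. Upp1 fell by 2.08 and then rose by 0.80 (difference -2.88, SE 0.257, adjusted p = 4.56e-07), and Nfkbia, the inhibitor of NF-kappaB, fell by 0.48 and then rose by 0.55. The first call of Nfkbia was lost without negative 3 or low 4 (adjusted p 0.0551 and 0.0619). Chchd10, Tdh, Utf1, Pim2, Sox15 (an HMG-box factor) and Tcea3 (an elongation factor) fell at the first step and were not called at the last, with adjusted p-values of the difference from 1.01e-06 for Chchd10 to 0.000331 for Sox15. In the medium gate Tdh and Sox15 were already at 4.71 and 2.59 CPM, and the part that such low levels had in the difference was not tested. Pim2, Chchd10, Utf1 and Tcea3 were at 11.5, 137, 25.0 and 53.7 CPM there.

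Among the gene lists, 8 pluripotency genes passed the test of the difference with the more downward change at the first step, 33.3% of the 24 tested beside 0.885% of all genes, and 6 of 22 without Mylpf and Calcoco2. In the medium gate Tdh, Klf2, Calcoco2 and Mylpf already stood at 4.71, 1.5, 2.26 and 5.7 CPM, and Utf1 and Dppa5a at 25.0 and 23.5. A gene near 0 has little room to fall again, and the part this had in the difference was not tested. In the other direction, which 0.9% of all genes took, 6 of 18 pan-neural genes passed it, 6 of 21 WNT ligands and modulators, 4 of 16 intermediate and dorsal genes and 4 of 13 endoderm genes. Hes5, a Notch target of neural progenitors, measured 79.7, 119, 86.4 and 86.3 CPM in the negative libraries, 109, 113, 108 and 113 in the low ones, 58.5, 45.4, 51.5 and 62.2 in the medium ones and 16.1, 16.7, 16.5 and 26.8 in the high ones. Its log2 fold change was 0.25 (adjusted p = 0.441) from negative to low and -1.54 (adjusted p = 1.23e-05) from medium to high (difference 1.80, adjusted p = 2.01e-05). Pax6 fell between medium and high and not between negative and low (difference 1.13, adjusted p = 0.00127). Crabp1, a binding protein for retinoic acid, had log2 fold changes of 0.42 and -1.02 (difference 1.44, adjusted p = 4.67e-05), and Map2k6, a kinase, of 0.97 and -0.46 (difference 1.43, adjusted p = 0.000219).

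**Figure D4:**
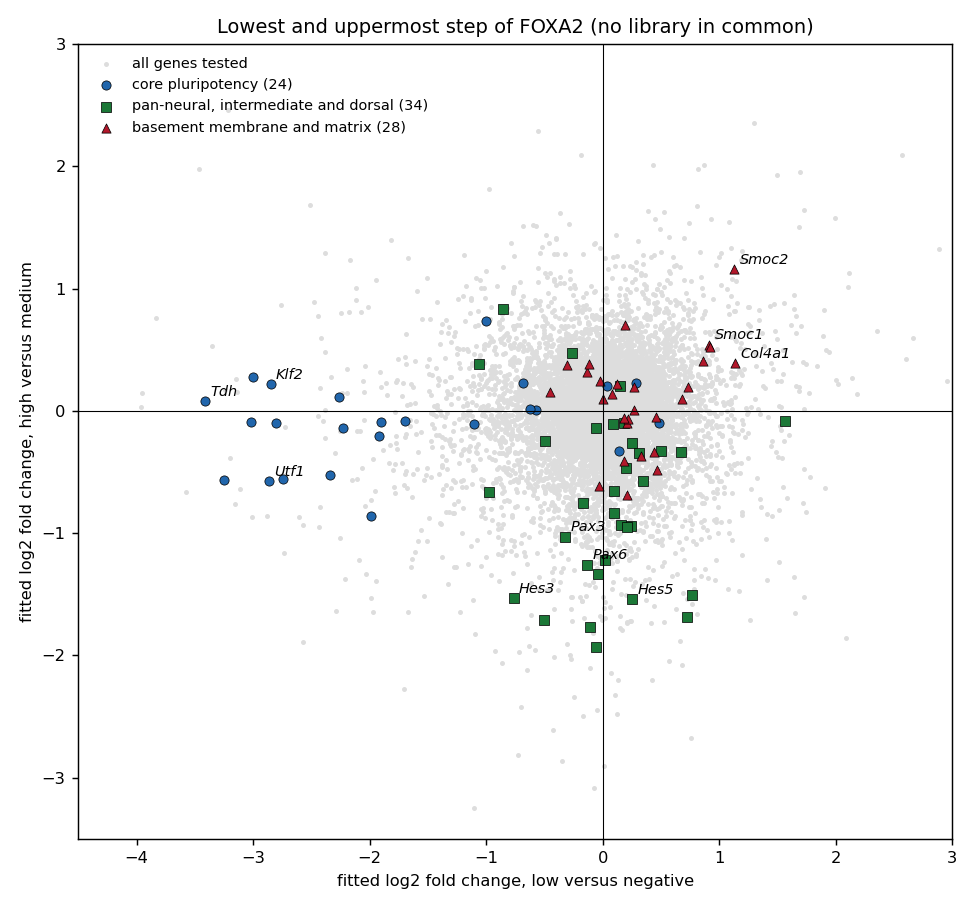
The x axis is the fitted log2 fold change of low versus negative and the y axis that of high versus medium, 2 comparisons with no library in common. Blue circles are the 24 core pluripotency genes, green squares the 34 pan-neural, intermediate and dorsal genes and red triangles the 28 basement membrane and matrix genes, over all tested genes in grey, of which 9 lie outside the axes. Most blue circles lie far to the left near 0 on the y axis, and most green squares lie below 0 near 0 on the x axis. Many of the genes shown as blue circles were already low in the medium gate, and the part this had in their place on the y axis was not tested.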

How the data were processed

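The table that the authors deposited holds raw counts of 35976 genes for the 16 libraries, not normalized. Per the submitters' processing notes, which give no roles, the tools named are cutadapt 1.18, STARsolo 2.7.9a, DESeq2 1.42.0 and the build GRCm38. No annotation, strand setting or use of molecular identifiers is given in the sources used here, so overlapping and antisense genes may share reads. BRB-seq, the method per the labels, is a bulk 3′ RNA-seq in which barcoded samples are pooled early. The way cells were separated by FOXA2 level is likewise not given.

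Each column was assigned to its sample by its name. The counts were fitted with edgeR 4.0.16 (R 4.3.3): its expression filter kept 13891 genes, libraries were scaled by TMM, and 1 quasi-likelihood model of the 4 gates was fitted to all 16 libraries. Low versus negative, high versus medium and the difference between them were tested, with Benjamini-Hochberg adjustment over all genes tested at 0.05. All adjusted p-values come from this test, and a gene rose, fell or was called by it. The SE of a log2 fold change is its size over the square root of F. Levels are CPM by scaled library size.

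The genes named had no overlap between the gates, a mean level of 10 CPM or more in the higher gate and a call under all 24 alternatives. Of these the 15 with the largest change and the 10 with the smallest p in each direction were taken, with the called members of each list described and, for the difference between steps, the 8 with the smallest p each way (by level and symbol only). Gene models without a name were left out. A called list member is not reported here. The members, the 43 lists, the motifs and the tests were chosen with earlier results of these data known. The pattern for mitochondrial genes was changed after the table was seen, and the 4 promoters, the group of Platr RNAs and the genes at 0 counts were picked after their values.

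Alternatives tried were scaling by RLE, DESeq2 1.42.0, no filter, a filter of 5 CPM in 4 libraries, the replicate number as a block, thinning to the smallest total, leaving out each library, leaving out low 1 and medium 2, fitting only the 2 gates compared and, for motifs, 1 strand only. Robust moderation of the dispersion, and counts or sums of 3 lists without Mylpf and Calcoco2, Foxa2 or Apoe, were added after the data were seen. Robust moderation gave the gene counts of the earlier work on these data, but the planned fit has no such option and was kept. The smallest chi-square per degree of freedom between libraries of a gate was 4.87, so no 2 libraries were treated as 1. The fit was tested on simulated data.

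Coordinates are those of GENCODE M21 (GRCm38), in which 26763 of the symbols were found. Promoter windows are RefSeq's (GRCm38.p6).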

Additional observations from a re-analysis of the deposited data

Results flagged for a closer look

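In a group of 4 libraries, a library was marked when its gap to the nearest other was a larger part of the gate's whole range than Dixon's 95% critical value allows. Of 300 groups of 4 (150 genes in the negative and the low gate), 17 were marked, or 5.67%, and chance alone marks about 5% of groups.

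Negative 2 was marked 6 times, each time as the highest of its gate: Pim2 stood at 113 CPM there (54.9 to 58.2 in the others), Dab2 at 23.3 (9.88 to 11.5), Slc16a3 at 302 (157 to 172), Eif4ebp1 at 1440 (1170 to 1220), Cox7a1, a cytochrome oxidase subunit, at 27.3 (19.8 to 20.9) and Hes5 at 119 (79.7 to 86.4). Low 2 was marked 4 times, also as the highest: Chchd10 at 184 CPM (136 to 141 in the others), Dppa4 at 25.1 (12.7 to 14.2), Lefty1 at 68.7 (23.0 to 24.8) and Krt18 at 215 (136 to 148). Low 4 was marked 4 times, as the highest for Chac1 at 3.92 CPM (1.59 to 1.98) and Nupr1 at 3.92 (1.65 to 1.94) and as the lowest for Igfbpl1 at 54.8 (72.6 to 73.1) and Rpl39l, a ribosomal protein copy, at 1.60 (3.81 to 4.24). Low 3 was the lowest for Rasgrp2, at 11.7 CPM (14.9 to 15.4). Negative 1 was the highest for Meis2, at 33900 CPM (387 to 519), and for LOC108168785, at 839 CPM (3.47 to 5.84).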

How the results depend on the processing

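For low versus negative, 189 genes rose and 310 fell. With no filter on low counts the first count was 352. Over the fits that left out 1 library each, the counts ran from 123 to 262 and from 208 to 380, highest without medium 2. With robust moderation they were 204 and 318, with DESeq2 263 and 400, and all other settings stayed within 1.5 times. For high versus medium (44 and 72), the counts were 92 and 156 with no filter, 143 and 144 without low 1 and medium 2, 83 higher with DESeq2, and 24 to 98 and 40 to 118 over single libraries left out. For the difference between the steps (125 and 123), they were 286 and 191 with no filter, 95 to 147 and 89 to 156 over single libraries. Of the genes named for low versus negative, Meis2 changed sign, and its log2 fold change of -3.96 ran from -4.36 (without negative 2) to 0.31 (without negative 1) over single libraries left out.

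Libraries with the same number did not pair clearly: their deviations from the gate means correlated at -0.00522 to 0.305, below 0.1 for at least 1 number. Of the libraries, 2 of 4 negative and 3 of 4 low ones correlated best with their own number. With the replicate number as a block, 219 genes rose and 340 fell. The shallowest library had 3268948 counts, and thinning all to that total left 128 and 237.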

Other observations

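The Platr genes, long non-coding RNAs named for their association with pluripotency, were read as a group after the fall of Platr10 had been seen. Of 18 in the table, 12 were tested, 5 fell and none rose, and 11 of the 12 had a fitted change below 0 (median log2 fold change -1.23). Platr10 measured 9.07, 19.4, 6.55 and 7.27 CPM in the negative libraries and 0.38, 2.65, 0.565 and 1.16 in the low ones. Platr3 measured 16.4, 19.3, 14.0 and 19.6 CPM against 4.43, 6.18, 6.49 and 4.35, without overlap (log2 fold change -1.69, adjusted p = 0.000154, edgeR). Platr17, Platr14 and Platr22 fell by 1.31, 1.14 and 1.80, and all 5 calls held under the 24 alternatives. Platr7 was the exception in sign, at 0.44 (adjusted p = 0.778).

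Of 22 tested cadherin, Eph and ephrin genes 3 rose and 1 fell. Epha2, a receptor of pluripotent cells, fell from 10.6 ± 6.07 to 2.60 ± 1.52 CPM (SD, n = 4) in all settings, while the count of those that rose was 1 without negative 1. Phlda2, an imprinted growth regulator of the placenta, fell from 128 ± 9.50 to 66.3 ± 17.1 CPM.

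The genes that rose from negative to low stood at a median of 1.77 times their negative mean in the low gate, 2.02 times in the medium gate and 1.94 times in the high gate. Those that fell stood at 0.438, 0.452 and 0.448 times. The 3 gates share the negative libraries, and the genes were picked from the first of them.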
